A study of Mus musculus with 82 samples.

Results

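The genes described here are 38 genes of the amino acid stress response that the transcription factor ATF4 governs. They were taken by symbol from gene-level read counts of mouse hematopoietic stem cells (HSCs) and progenitors, and make up 38 of the 55376 genes counted in 30 mRNA-seq libraries. Each symbol was found once, and every member passed the filter on low counts in each comparison below. They fall into 10 stress regulators (Atf4, Atf5, Ddit3, Ddit4, Trib3, Chac1, Sesn2, Cebpg, Ppp1r15a and Vldlr), 9 enzymes of serine, one-carbon, asparagine and proline synthesis (Asns, Psat1, Phgdh, Psph, Shmt2, Mthfd2, Mthfd1l, Aldh18a1 and Pycr1), 7 amino acid transporters (Slc7a11, Slc7a5, Slc3a2, Slc7a1, Slc38a2, Slc1a4 and Slc1a5) and 12 cytosolic aminoacyl-tRNA synthetases (Nars, Sars, Gars, Wars, Aars, Yars, Cars, Mars, Eprs, Iars, Tars and Lars).

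When a cell lacks an amino acid, uncharged tRNA activates the kinase GCN2, which phosphorylates the initiation factor eIF2. General translation then falls while translation of the Atf4 mRNA rises, and ATF4 protein, usually as a dimer with a C/EBP partner, binds a composite C/EBP-ATF element and switches on genes that make, import and charge amino acids. Because ATF4 is controlled largely at translation, the level of its own mRNA is a different quantity from its activity, and only mRNA was measured here.

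All cells came from C57BL/6J wild-type mice. Young HSCs (YHSCs, 4 libraries, from pooled male mice of 3 to 4 months) and old HSCs (OHSCs, 8 libraries, from individual male mice of 24 to 26 months) were sorted as lineage-negative Sca-1+ c-kit+ CD34- Flk2- CD150+ cells, so pooling went with age. The supplier went with age too, The Jackson Laboratory for young mice and the NIA Aged Rodent Colony for old ones. OHSCs were also transduced with a lentivirus carrying a control shRNA (shCtrl) or 1 of 2 shRNAs, shRNA1 and shRNA2, against a shorter variant of Btaf1, a regulator of TATA-binding protein. These cells were either kept in F12 medium with thrombopoietin and stem cell factor for 3.5 days (culture, 2 libraries for each shRNA) or transplanted after 20 to 24 hours into lethally irradiated CD45.1 recipients with CD45.1 myeloid progenitors and sorted again from the recipients as CD48- CD150+ CD45.2+ cells (transplantation, 2 libraries for each shRNA). Young common myeloid progenitors (CMP), granulocyte-macrophage progenitors (GMP) and megakaryocyte-erythrocyte progenitors (MEP) gave 2 libraries each. Each transplantation library pooled GFP+ cells of 2 to 4 recipients, and the sources used here do not say whether the donor cells of the 2 pools came from separate old mice. For the culture and progenitor libraries no source used here states that replicates came from separate animals, so p-values there measure the spread between libraries, which may be technical. In addition, ATAC-seq of 4 YHSC and 4 OHSC libraries and H3K27ac ChIP-seq of 2 and 2 libraries were used at the promoters of the members.

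The reads that fell on genes came to 20475764 to 24654742 in each age library and to 33177394 to 42737054 in each of the others. Btaf1, measured for the whole gene and so without separating its short from its canonical form, stood at 150 and 153 CPM (read counts scaled to a common library size) in cultured shCtrl libraries against 117 to 127 with an shRNA, and at 158 and 164 against 116 to 136 after transplantation. The labelled cell types carried their markers: 10 HSC markers summed to 3095 to 3417 CPM over YHSCs and OHSCs but to 5.63 and 5.90 in MEP, 10 granulocyte-monocyte markers reached 74622 and 75645 in GMP, and 10 erythroid markers reached 10918 and 11477 in MEP. Megakaryocyte markers summed to 29.99 and 31.2 CPM in MEP against 660 and 673 in CMP. Among the transplantation libraries the neutrophil-lineage genes Elane and Mpo were uneven, at 0.342 to 42.7 and 0.649 to 179 CPM, highest in replicate 1 of shRNA1 and next in replicate 1 of shCtrl.

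The composite element gives the members a feature that can be read from sequence. It was searched as TGATGNAA, where N is any base, and on the other strand as TTNCATCA, in windows of 300 bases around the RefSeq transcript starts, from 250 before to 50 after. Of the 38 members, 31 were matched to such a promoter (not matched were Slc7a5, Slc1a5, Nars, Wars, Cars, Mars and Lars), and 12 of these 31 held the element, 38.7% against 4.51% of all 27025 genes in the table. The 12 were Trib3, Chac1, Vldlr, Asns, Pycr1, Slc7a11, Slc1a4, Gars, Aars, Yars, Iars and Tars. Among synthetases it was present in 5 of the 7 matched members and in 0 of the 5 matched cytosolic synthetases outside the list. The element is shown in capitals within 30 bases, read 5′ to 3′ along the gene (RefSeq, GRCm38.p6), for 7 of the 12 members, picked with their values known as those that recur in the comparisons below. A match is a description of letters and no evidence of binding.
Trib3, chr2:152344028-152344057, minus strand: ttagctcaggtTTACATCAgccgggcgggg
Chac1, chr2:119351038-119351067, plus strand: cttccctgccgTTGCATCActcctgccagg
Vldlr, chr19:27216809-27216838, plus strand: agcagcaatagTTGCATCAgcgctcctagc
Asns, chr6:7693214-7693243, minus strand: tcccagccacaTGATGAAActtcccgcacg
Slc7a11, chr3:50443661-50443690, minus strand: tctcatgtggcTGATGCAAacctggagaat
Slc1a4, chr11:20332699-20332728, minus strand: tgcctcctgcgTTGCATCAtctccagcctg
Pycr1, chr11:120643833-120643862, minus strand: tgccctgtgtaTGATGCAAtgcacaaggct

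Per kilobase of exon, the members spanned a wide range in YHSCs. Phgdh, which carries out the first step of serine synthesis, was highest at 84.1 ± 5.10 RPKM (SD, n = 4), followed by the glutamine transporter Slc1a5 at 40.5 ± 2.03. Shmt2, Slc38a2, Gars and Wars came next at 33.4 ± 0.827, 33.3 ± 1.69, 32.7 ± 1.07 and 32.2 ± 1.73, and these 4 did not differ beyond their spread. Atf4 itself had rank 10 at 28.3 ± 1.13 RPKM and Trib3, a pseudokinase that restrains ATF4, rank 13 at 22.2 ± 1.62. At the low end stood Vldlr, a lipoprotein receptor, at 1.81 ± 0.293, the serine and alanine transporter Slc1a4 at 1.42 ± 0.206, Pycr1, an enzyme of proline synthesis, at 0.734 ± 0.132, the glutathione-degrading Chac1 at 0.327 ± 0.115 and the cystine transporter Slc7a11 at 0.133 ± 0.0488. Phgdh kept the first rank in every HSC group and in CMP and GMP, while in MEP the asparagine synthetase gene Asns ranked first at 243 ± 0.118 RPKM (n = 2).

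**Figure D1:**
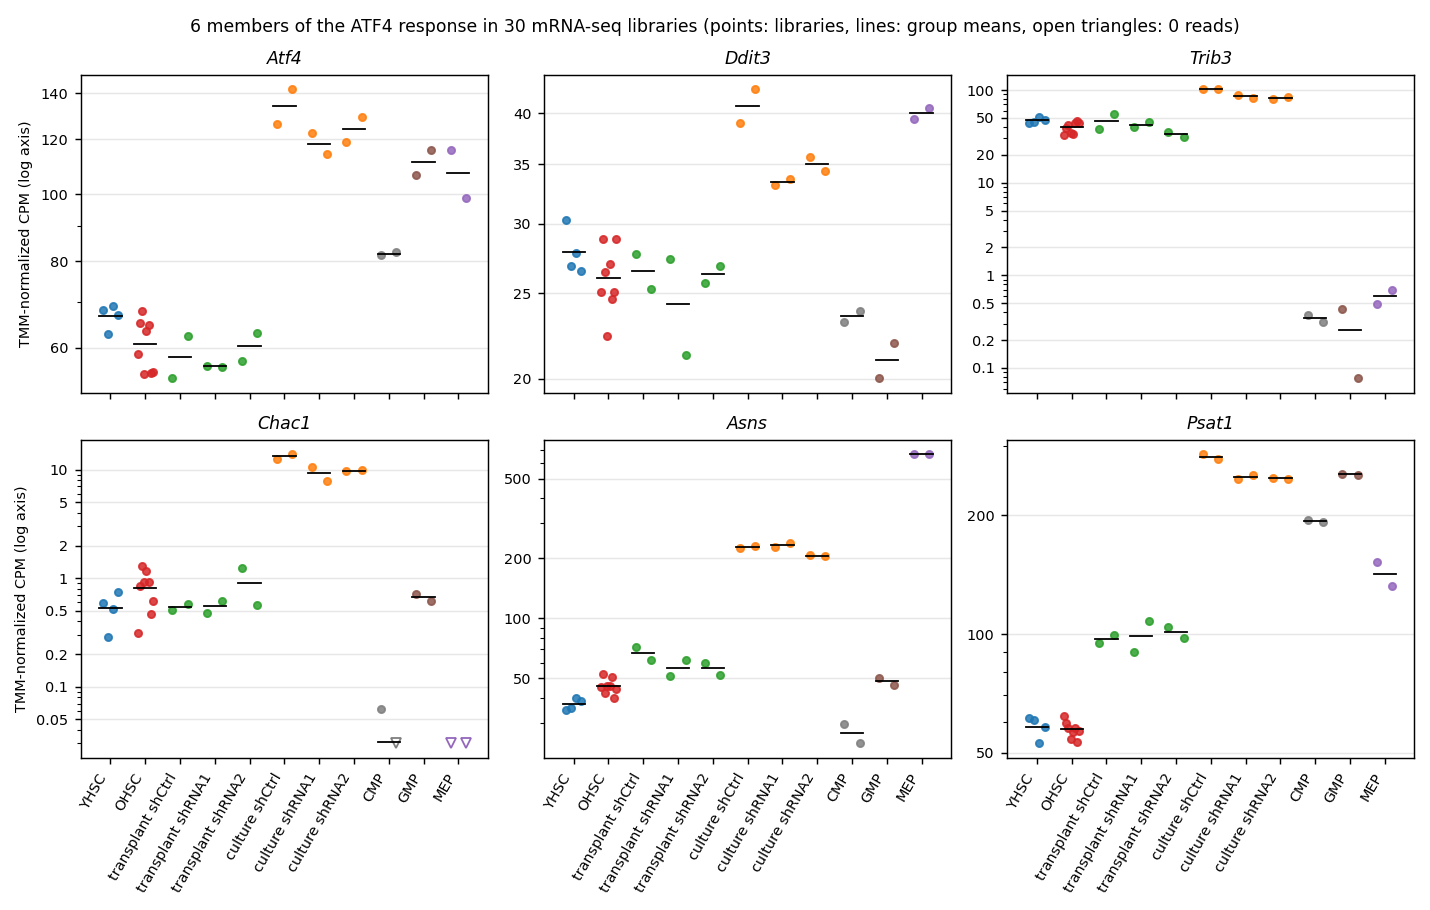
TMM-normalized CPM (log axis) of Atf4, Ddit3, Trib3, Chac1, Asns and Psat1 in 30 libraries, grouped as YHSC (4), OHSC (8), transplantation and culture by shRNA (2 each) and CMP, GMP and MEP (2 each). Points are libraries, lines group means and open triangles libraries with 0 reads. Trib3 lay between 30.8 and 103 CPM in all 24 HSC libraries and between 0.0775 and 0.698 in the 6 progenitor libraries, and Asns reached 664 CPM in both MEP libraries.

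Age changed 11 of the 38 members, most of them by little. Of 38 members, 3 were higher and 8 lower in OHSCs at an adjusted p below 0.05 (edgeR quasi-likelihood test, Benjamini-Hochberg over 21522 genes), where 11.9% of all genes tested were higher and 8.67% lower. The median log2 fold change was -0.06 over the members and -0.01 over all genes, and 1 member in each direction passed a 1.5-fold change, where 4.69% of all genes were higher and 2.83% lower. By class, 1 of the 10 stress regulators, the lipoprotein receptor Vldlr, was higher. The other 9 (Atf4, Atf5, Ddit3, Ddit4, Trib3, Chac1, Sesn2, Cebpg and Ppp1r15a) were not called. Among the rest, 1 enzyme was higher and 2 lower, 1 transporter was higher and 3 lower, and 3 synthetases were lower. Without young replicate 1 or young replicate 4 the number of lower members was 5 instead of 8.

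Vldlr rose most. It was at 16.7, 21.2, 14.8 and 20.04 CPM in YHSCs and ran from 63.5 to 159 CPM in OHSCs with a median of 105, so every old library lay above every young one, while the old libraries themselves differed by a wide margin. Its log2 fold change was 2.66 ± 0.31 (SE, adjusted p = 0.000101, edgeR). Asns, which makes asparagine from aspartate and glutamine, was at 34.9, 35.7, 39.7 and 38.5 CPM in YHSCs and at 39.8 to 52.4 CPM (median 45.5) in OHSCs. The lowest old library was just above the highest young one, and the change was 0.32 ± 0.06 on the log2 scale (adjusted p = 0.000519). Slc3a2, the heavy chain shared by several amino acid exchangers, rose by 0.14 ± 0.04 (adjusted p = 0.0174) with overlapping groups, at 107 to 118 CPM in YHSCs and 115 to 130 in OHSCs, and this call was lost without young replicate 2 or 3.

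The largest falls were in a neutral amino acid transporter and in the entry enzyme of serine synthesis. Slc1a4, which carries serine, alanine and cysteine, was at 5.79, 4.70, 6.60 and 5.24 CPM in YHSCs and at 1.75 to 4.54 CPM (median 2.80) in OHSCs, and fell by 0.88 ± 0.19 on the log2 scale (adjusted p = 0.00113, edgeR). Phgdh was at 222, 194, 217 and 205 CPM against 122 to 150 CPM (median 141), and fell by 0.57 ± 0.05 (adjusted p = 4.74e-09). In both genes the 2 ages did not overlap, although for Slc1a4 the gap between them was narrow. Slc7a5, the transporter of large neutral amino acids, fell by 0.32 ± 0.10 (adjusted p = 0.0294), with 58.0, 57.5, 52.9 and 66.5 CPM in YHSCs against 39.5 to 59.8 (median 45.2). Its groups overlapped, and the call was lost without young replicate 1, 2 or 4 or old replicate 1 or 4. Mthfd1l, which releases formate in mitochondria, fell by 0.24 ± 0.06 (adjusted p = 0.00966), from 43.3, 38.1, 41.3 and 42.5 CPM to 29.8 to 39.1 CPM (median 35.8), again with overlap, and was not called without young replicate 1. The other 4 lower members were the arginine transporter Slc7a1 and the synthetases Cars, Nars and Yars, with log2 fold changes from -0.23 to -0.16. Slc7a1 (adjusted p = 0.0421, edgeR) was not called without any 1 of the 4 young libraries or without old replicate 1, 3, 5, 7 or 8, and Cars (adjusted p = 0.0220) was not called without young replicate 1 or 4, while Nars and Yars passed without any single library.

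The remaining members described throughout did not pass the test with age, and the 27 members without a call had log2 fold changes from -0.36 for Mthfd2 to 0.62 for Chac1. Atf4 was at 62.9 to 68.9 CPM in YHSCs and 55.0 to 67.8 in OHSCs (log2 fold change -0.12 ± 0.06, adjusted p = 0.167, edgeR). Ddit3, the pro-apoptotic C/EBP factor CHOP, gave -0.08 ± 0.07 (adjusted p = 0.506), Chac1 0.62 ± 0.37 (adjusted p = 0.283) and the serine synthesis enzyme Psat1 -0.00 ± 0.05 (adjusted p = 0.989). Trib3 gave -0.24 ± 0.09 (adjusted p = 0.0700), at 44.2 to 51.8 CPM in YHSCs and 32.6 to 46.3 in OHSCs, and passed with DESeq2 (adjusted p = 0.0326) and without old replicate 6 or 7. Groups did not overlap for 2 members in the higher direction (Vldlr and Asns) and for 4 in the lower direction (Phgdh, Slc1a4, Nars and Yars), which 7.34% and 6.19% of all genes showed.

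**Figure D2:**
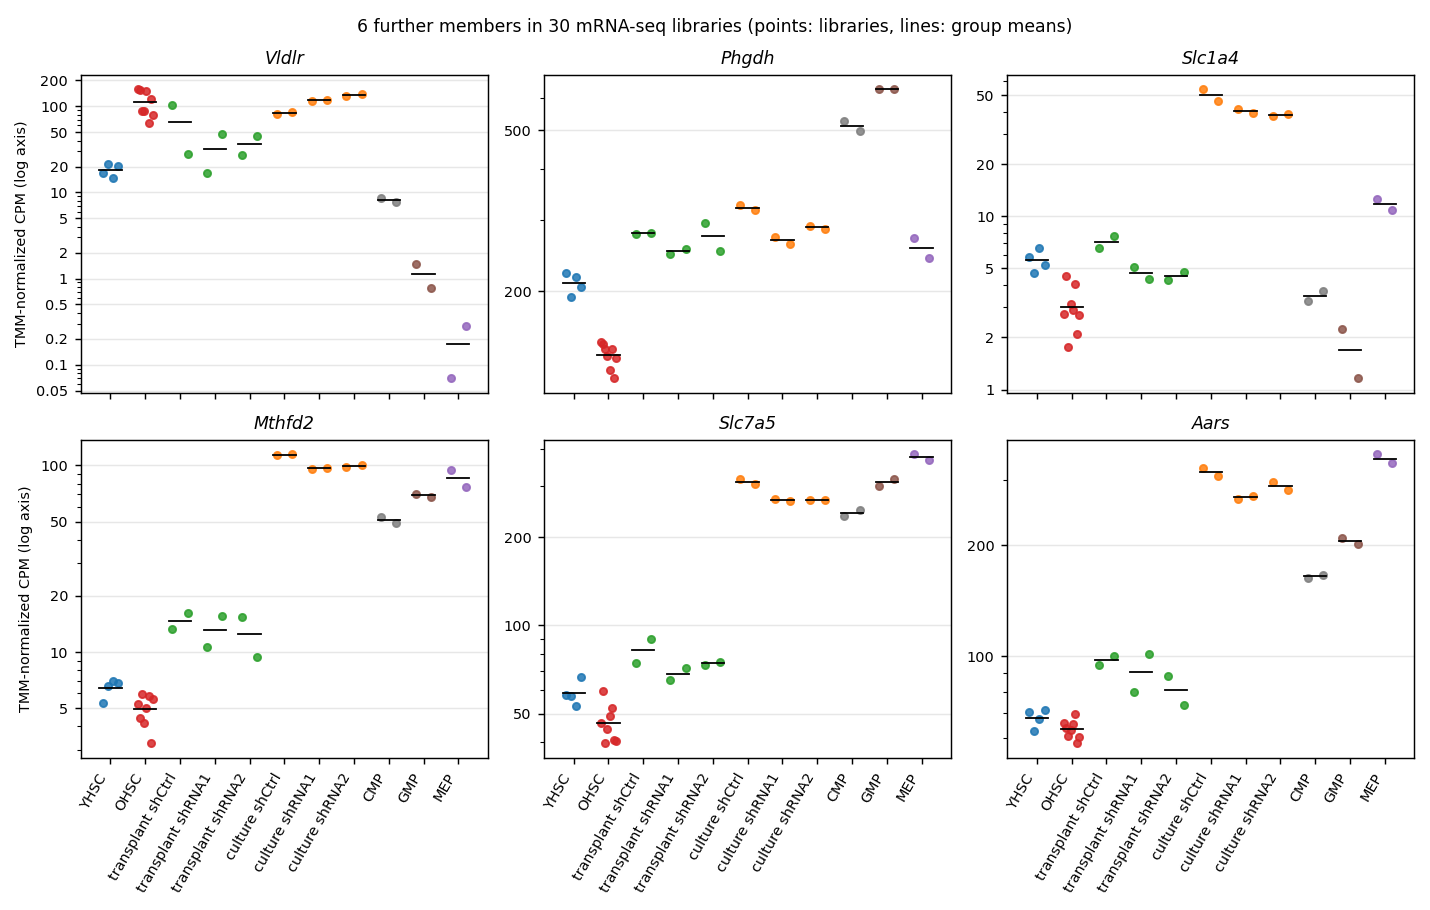
TMM-normalized CPM (log axis) of Vldlr, Phgdh, Slc1a4, Mthfd2, Slc7a5 and Aars in the same 30 libraries and groups; points are libraries and lines group means. Vldlr lay at 14.8 to 21.2 CPM in YHSCs and 63.5 to 159 in OHSCs, and Phgdh and Slc1a4 were lower in all 8 OHSC than in all 4 YHSC libraries.

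Other genes of the pathway changed in small numbers with age. Among 17 tested ATF4 targets outside the members, 3 rose and 1 fell: Nupr1, a stress-induced chromatin protein, by 1.85 ± 0.06, Cebpb by 0.75 ± 0.05 and Soat2 by 0.58 ± 0.12, and the glycine transporter Slc6a9 by -0.53 ± 0.16 (log2, edgeR, all adjusted p at most 0.0200). Of the eIF2 kinases, Eif2ak3 (PERK) rose by 0.26 ± 0.07 (adjusted p = 0.0108) and Eif2ak4 (GCN2) fell by 0.17 ± 0.05 (adjusted p = 0.0190). Ppp1r15b, a subunit of the eIF2 phosphatase, gave -0.25 ± 0.06 (adjusted p = 0.00228, edgeR). Among 10 folate cycle genes outside the members 1 rose and 4 fell, and 5 of 16 genes of the XBP1 and ATF6 arms of the unfolded protein response rose and 1 fell. Markers of other cells moved with age too. Of 10 erythroid markers 8 were lower and the globin gene Hba-a1 was higher (2.98 ± 0.69, adjusted p = 0.0106, from 1.73 to 2.69 CPM in YHSCs up to 4.35 to 47.1 in OHSCs), of 8 B cell markers 6 were lower, and of 5 tested megakaryocyte markers 4 were higher, with a summed level of 461 to 509 CPM in YHSCs and 1262 to 1531 in OHSCs. Of 7 tested granulocyte-monocyte markers Prtn3 was higher (1.32 ± 0.05, adjusted p = 2.8e-15) and Mpo lower (-3.25 ± 1.02, adjusted p = 0.0470), with Mpo at 25.5 CPM in young replicate 3 and at most 1.30 in every other library. Of the 10 HSC markers Slamf1 (0.84 ± 0.06), Procr (0.45 ± 0.04) and Meis1 (0.12 ± 0.04) were higher. Of 12 proliferation markers Cdk1, Mcm2 and Mcm5 were lower, with a summed level of 486 to 534 CPM in YHSCs and 306 to 439 in OHSCs. From a list of 11 dissociation and early response genes Jun was higher (1.32 ± 0.13), and Dusp1 (-0.61 ± 0.07) and Ier2 (-0.21 ± 0.06) were lower (log2, edgeR, adjusted p at most 0.0125). The part of these cell types and genes in the changes of the members was not tested, and in bulk libraries fewer cells of a type and less RNA per cell cannot be told apart.

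Chromatin at the promoters of the members changed little with age. ATAC-seq held 40 regions at the starts of 36 members. With a call needing more than a 1.5-fold change and an adjusted p under 0.01 (edgeR over 89245 regions), 0 were higher and 1 lower in OHSCs, against 1.92% higher and 2.07% lower among all tested regions at protein-coding starts and 10.1% and 2.9% among all tested regions. With no fold threshold and an adjusted p under 0.05, 0 were higher and 23 lower, where 5.56% and 36.3% of regions at starts were. The called region lies at a start within the Slc3a2 gene (chr19:8712839-8714225, mm10) and held 73.7, 74.0, 69.0 and 73.0 CPM in YHSCs against 47.1, 46.3, 46.4 and 48.2 in OHSCs. Its log2 fold change was -0.62 ± 0.05 (adjusted p = 3.20e-16), with no overlap, whereas the Slc3a2 mRNA was slightly higher in OHSCs. The region at the 5′ end of the gene (chr19:8722742-8723594) was lower by -0.52 ± 0.06 (adjusted p = 6.63e-11), short of the 1.5-fold threshold. The region at Vldlr (chr19:27216747-27218373) had 11.3 to 15.6 CPM in YHSCs and 13.1 to 16.2 in OHSCs, a log2 fold change of 0.07 ± 0.10 (adjusted p = 0.644). At Phgdh (chr3:98338515-98340217) accessibility was lower by -0.29 ± 0.05 (adjusted p = 7.60e-06), short of the 1.5-fold threshold. The median over member regions was -0.19 and over all regions at starts -0.13.

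H3K27ac, a mark of active promoters and enhancers, was compared without a test, as the ratio of mean signal, which the authors had scaled to a common number of reads. Of 38 promoter peaks at 35 members, 1 was called higher (ratio above 1.5 and at least 1.2 in every pairing of single libraries) and 0 lower, and 2.72% and 1.09% of 13251 promoter peaks were. The called peak covers the start of Vldlr (chr19:27216586-27218985), with a signal of 2.10 and 1.93 in YHSCs and 2.69 and 3.67 in OHSCs. Both old libraries were above both young ones, the ratio was 1.58, and the pairings gave 1.28 to 1.90. It was not called without old replicate 2 or after scaling libraries to the same median signal. The Phgdh peak gave a ratio of 0.812 (pairings 0.717 to 0.916) and the Asns peak 1.04 (1.01 to 1.08). The Slc3a2 peak that overlaps the region of lower accessibility within the gene (chr19:8712164-8713897) gave a ratio of 1.30 (pairings 1.197 to 1.40), and the peak at the 5′ end (chr19:8722702-8724292) 0.941 (0.810 to 1.09). The median log2 ratio was -0.08 over the member peaks and -0.03 over all promoter peaks.

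All members were higher in cultured than in transplanted OHSCs. The 38 passed at an adjusted p below 0.05 and 0 were lower (edgeR over 21443 genes), while 29.3% of all genes were higher and 32.2% lower. A 1.5-fold change was passed by 32 members upward and 0 downward (all genes 14.4% and 17.8%), and the median log2 fold change was 1.07 for the members and -0.02 for all genes. In 36 members every one of the 6 culture libraries lay above every one of the 6 transplantation libraries, which 19.8% of all genes showed. Leaving out any 1 library left 37 or 38 members higher, and leaving out both libraries with the most Elane and Mpo reads left 38. Medium, cytokines, time, the host and the final sort (GFP+ cells in culture, GFP+ cells in the HSC gate after transplantation) went with the setting and cannot be told apart. The labels give the same RNA extraction and library kit for both settings, whereas the methods give another extraction and kit for transplanted HSCs, so these may also differ between the settings. The share of reads on mitochondrial mRNAs was 0.532 to 0.621% in culture and 0.766 to 1.00% after transplantation, without overlap, and its part in the change of the members was not tested.

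Stress regulators with the largest rise were Chac1 and Ddit4. Chac1 was at 12.6 and 13.9 CPM with shCtrl, 10.7 and 7.88 with shRNA1 and 9.65 and 9.93 with shRNA2 in culture. After transplantation the same 3 groups had 0.514 and 0.580, 0.480 and 0.619, and 1.25 and 0.562. The lowest culture library was thus well above the highest transplantation library, and the log2 fold change was 4.02 ± 0.18 (adjusted p = 2.10e-10, edgeR). Ddit4, an inhibitor of the growth kinase mTORC1, rose by 2.12 ± 0.06, Trib3 by 1.14 ± 0.08 and Atf4 by 1.10 ± 0.05 (adjusted p = 2.05e-10). Atf4 stood at 114 to 142 CPM in culture and 54.2 to 63.0 after transplantation, where freshly sorted OHSCs, in another library set, had 55.0 to 67.8. Ddit3 rose by 0.49 ± 0.06 (adjusted p = 1.25e-05), from 21.3 to 27.7 CPM up to 33.1 to 42.6 CPM. Ppp1r15a (GADD34), the phosphatase subunit that ends the response, rose by 0.39 ± 0.06, the stress factor Atf5 by 1.05 ± 0.10, Sesn2 by 0.64 ± 0.07 and Cebpg, a C/EBP partner of ATF4, by 0.57 ± 0.05. The genes Ddit3 (chr10:127290774-127296288, plus strand) and Mars (chr10:127296221-127311786, minus strand) overlap at their ends (mm10), and reads in the overlap cannot be told apart, since no source used here states whether the counting used strand.

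Transporters were the class with the largest median, 1.89. Slc7a11, which imports cystine in exchange for glutamate, was at 28.9 and 34.5 CPM with shCtrl, 24.4 and 19.6 with shRNA1 and 28.4 and 22.3 with shRNA2 in culture. After transplantation it was at 2.45 and 2.74, 4.05 and 2.11, and 2.25 and 1.66, so the settings were far apart, by 3.37 ± 0.15 on the log2 scale. Slc1a4 followed, at 54.3 and 46.3, 41.8 and 39.7, and 37.9 and 38.8 CPM in culture against 6.54 and 7.74, 5.09 and 4.36, and 4.30 and 4.75 after transplantation. Its log2 fold change was 3.00 ± 0.07 (adjusted p = 6.28e-13, edgeR). Slc7a5 and Slc7a1 rose by 1.91 ± 0.05 and 1.89 ± 0.11, and Slc3a2, Slc1a5 and Slc38a2 by 0.55 to 0.71.

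Among enzymes (median 1.21), Mthfd2, the mitochondrial folate enzyme of proliferating cells, rose most. It was at 113 and 115 CPM with shCtrl, 95.9 and 97.3 with shRNA1 and 97.9 and 101 with shRNA2 in culture, and at 13.3 and 16.2, 10.6 and 15.5, and 15.4 and 9.43 after transplantation, without overlap (log2 fold change 2.94 ± 0.13, adjusted p = 4.5e-08, edgeR). Pycr1 rose by 1.97 ± 0.08, Asns by 1.89 ± 0.05 from 51.4 to 71.9 CPM up to 205 to 238 CPM, and Psat1 by 1.38 ± 0.04. Mthfd1l, Shmt2, Aldh18a1 and the last enzyme of serine synthesis, Psph, rose by 0.60 to 1.21. Phgdh, already the highest member per length in both settings, rose by 0.12 ± 0.04 (adjusted p = 0.0130) with overlapping libraries, at 262 to 327 CPM in culture and 247 to 296 after transplantation. Vldlr was the other member with overlap: it ran from 81.6 to 137 CPM in culture and from 16.9 to 104 after transplantation, where replicate 1 of shCtrl stood far above the rest (log2 fold change 1.35 ± 0.40, adjusted p = 0.0252), and it was not called without any 1 of the 6 culture libraries or without replicate 1 of shRNA1 or shRNA2 after transplantation.

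All 12 member synthetases rose, 11 of them by more than 1.5-fold, with a median of 0.99. Aars had the largest change, 1.70 ± 0.06, with 268 to 325 CPM in culture against 73.6 to 101 after transplantation, and Wars the smallest, 0.33 ± 0.03. The 8 other cytosolic synthetases (Farsa, Farsb, Hars, Kars, Qars, Rars, Vars and Dars) give a measure of the same class outside the list: 7 were higher, 0 passed 1.5-fold, and their median was 0.26. Of 17 mitochondrial synthetases 7 were higher and 5 lower, with a median of 0.13.

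**Figure D3:**
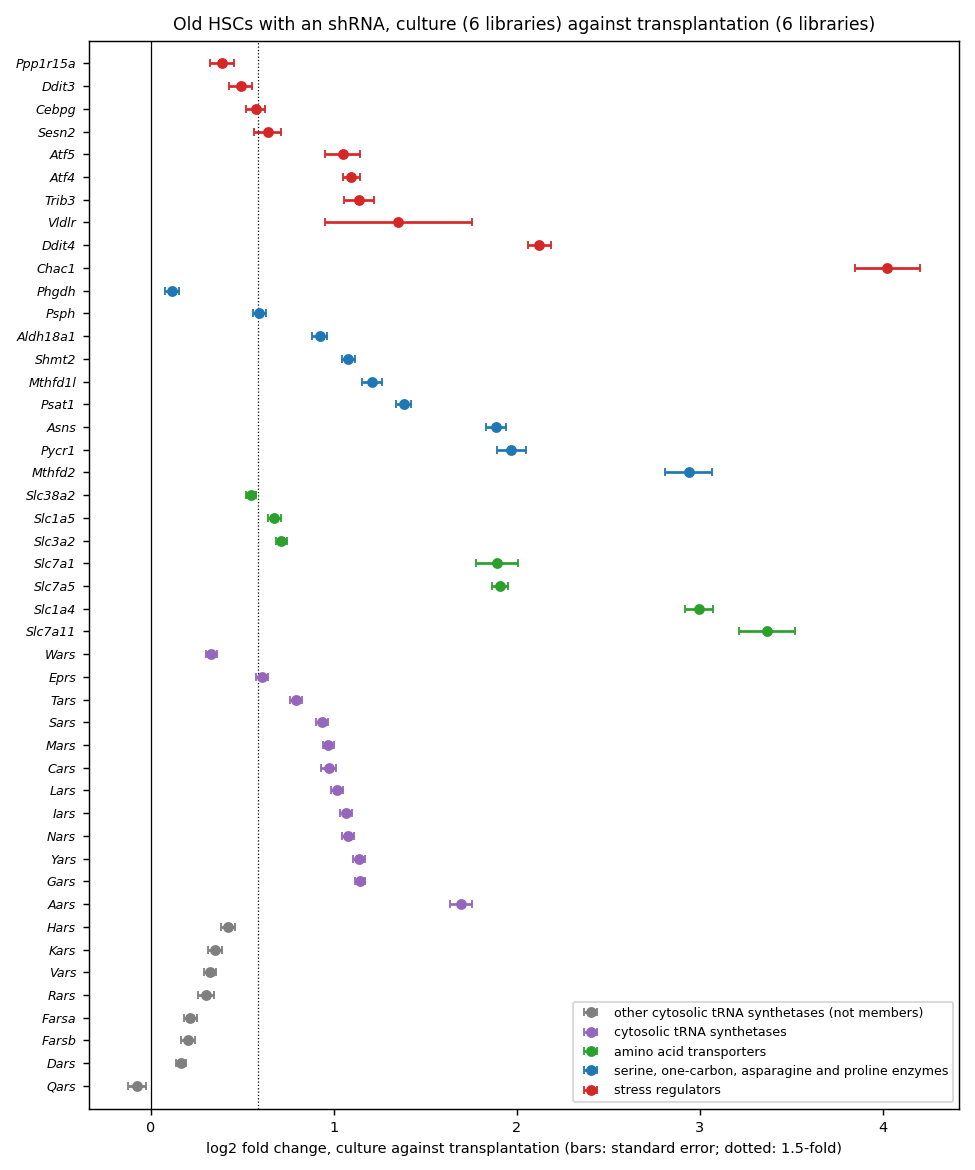
Log2 fold change of culture (6 libraries) against transplantation (6 libraries) for the 38 members, coloured by class, and for 8 cytosolic tRNA synthetases outside the list in grey; bars are standard errors, the solid line is 0 and the dotted line 1.5-fold. All 38 members lie to the right of 0, from 0.12 for Phgdh to 4.02 for Chac1, and the 8 other synthetases all lie left of the dotted line.

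Other lists moved in culture as well. Of 18 tested ATF4 targets outside the members 16 were higher and 0 lower, with a median of 1.23, among them the secreted proteins Stc2 (3.76 ± 0.14) and Gdf15 (3.07 ± 0.19). Aldh1l2, a mitochondrial folate enzyme, rose by 3.86 ± 0.18 and was 1 of 8 of 10 folate cycle genes outside the members that were higher. The XBP1 and ATF6 arms of the unfolded protein response had 15 of 16 genes higher, with a median of 0.61, and 10 of 13 genes of the eIF2 kinases, phosphatase and subunits were higher, with a median of 0.23. In contrast, 4 of 15 genes of amino acid sensing by mTORC1 were higher and 8 lower. All 12 proliferation markers were higher (median 1.56), with a summed level of 2676 to 3149 CPM in culture against 933 to 1279 after transplantation. Of 10 HSC markers 8 were lower. The part of cell cycle state in the change of the members was not tested.

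Knockdown of the shorter Btaf1 variant in culture lowered a number of members by small amounts. With the 4 shRNA libraries against the 2 shCtrl libraries, 10 members were lower and 1 was higher at an adjusted p below 0.05 (edgeR over 19763 genes), where 1.66% of all genes were lower and 1.7% higher. In all, 34 of 38 log2 fold changes were negative, with a median of -0.15 against 0.00 for all genes, and 0 members passed 1.5-fold (all genes 0.582% higher and 0.324% lower). For 26 members all 4 shRNA libraries lay below both shCtrl libraries, and for 1 above, each of which 12.9% of all genes showed. The 10 lower members rest on both shCtrl libraries: without replicate 1 of shCtrl 0 members were lower and without replicate 2 of shCtrl 1 was, each time with a lone control whose spread was taken from the other groups. Without the filter on low counts 17 members were lower, where 2.19% of all genes were. Tested alone against shCtrl, shRNA1 had 19 members lower and 1 higher (all genes 5.27% and 3.78%), and shRNA2 had 19 lower and 2 higher (all genes 4.76% and 3.92%).

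Among the 10 lower members Slc1a4 had the largest change, from 54.3 and 46.3 CPM with shCtrl to 41.8 and 39.7 with shRNA1 and 37.9 and 38.8 with shRNA2 (log2 fold change -0.35 ± 0.08, adjusted p = 0.0193, edgeR). Slc7a1 was at 102 and 107 CPM with shCtrl, at 88.0 and 79.3 with shRNA1 and at 85.4 and 87.7 with shRNA2 (-0.30 ± 0.06, adjusted p = 0.00918). Trib3 was at 103 and 102 CPM, 89.3 and 81.8, and 79.2 and 84.0 in the same order (-0.29 ± 0.06, adjusted p = 0.00981). In these 3 genes both controls were above all knockdown libraries, and the 2 Slc1a4 controls differed from each other by more than the 2 shRNAs did. Cars, the cysteinyl-tRNA synthetase, was at 123 and 123 CPM with shCtrl, 105 and 105 with shRNA1 and 107 and 105 with shRNA2 (-0.22 ± 0.05, adjusted p = 0.0129). The other 6 were Mthfd2, Phgdh, Slc7a5, Aars, Psat1 (-0.18 ± 0.04, adjusted p = 0.0158) and Iars, with log2 fold changes from -0.22 to -0.17. Aars was also not called without either replicate of shRNA1 or without replicate 2 of shRNA2, nor Mthfd2 without replicate 1 of shRNA1.

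Vldlr went the other way, at 81.6 and 85.9 CPM with shCtrl, 115 and 120 with shRNA1 and 131 and 137 with shRNA2. All 4 knockdown libraries were above both controls, with a log2 fold change of 0.58 ± 0.07 (adjusted p = 0.000412, edgeR). Members that did not pass were Atf4 (-0.15 ± 0.06, adjusted p = 0.244), Ddit3 (-0.25 ± 0.07, adjusted p = 0.0722), Chac1 (-0.48 ± 0.13, adjusted p = 0.0641), Slc7a11 (-0.42 ± 0.13, adjusted p = 0.127) and Asns (-0.06 ± 0.06, adjusted p = 0.720). Chac1 and Ddit3 passed with DESeq2, which called 13 members and 2.33% of all genes lower. The 8 other cytosolic synthetases had 0 called in either direction and a median of -0.06, with 0 at an unadjusted p below 0.05. Of 18 tested ATF4 targets outside the members 2 were higher and 1 lower. Proliferation markers moved too, 6 of 12 being lower, with a summed level of 3140 and 3149 CPM with shCtrl, 2676 and 2721 with shRNA1 and 2889 and 2960 with shRNA2. Of 5 tested erythroid markers Tfrc (-0.74 ± 0.06) and Epor (-0.38 ± 0.09) were lower, of 5 tested granulocyte-monocyte markers Gfi1 (-0.69 ± 0.11) and of 10 HSC markers Slamf1 (-0.34 ± 0.08), while of 5 tested megakaryocyte markers Vwf was lower (-0.28 ± 0.05) and Selp higher (0.25 ± 0.03; log2, edgeR, all adjusted p at most 0.0452). The share of reads on mitochondrial mRNAs was 0.532 and 0.543% with shCtrl and 0.554 to 0.621% with an shRNA, without overlap. The part of these markers and of this share in the change of the members was not tested.

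**Figure D4:**
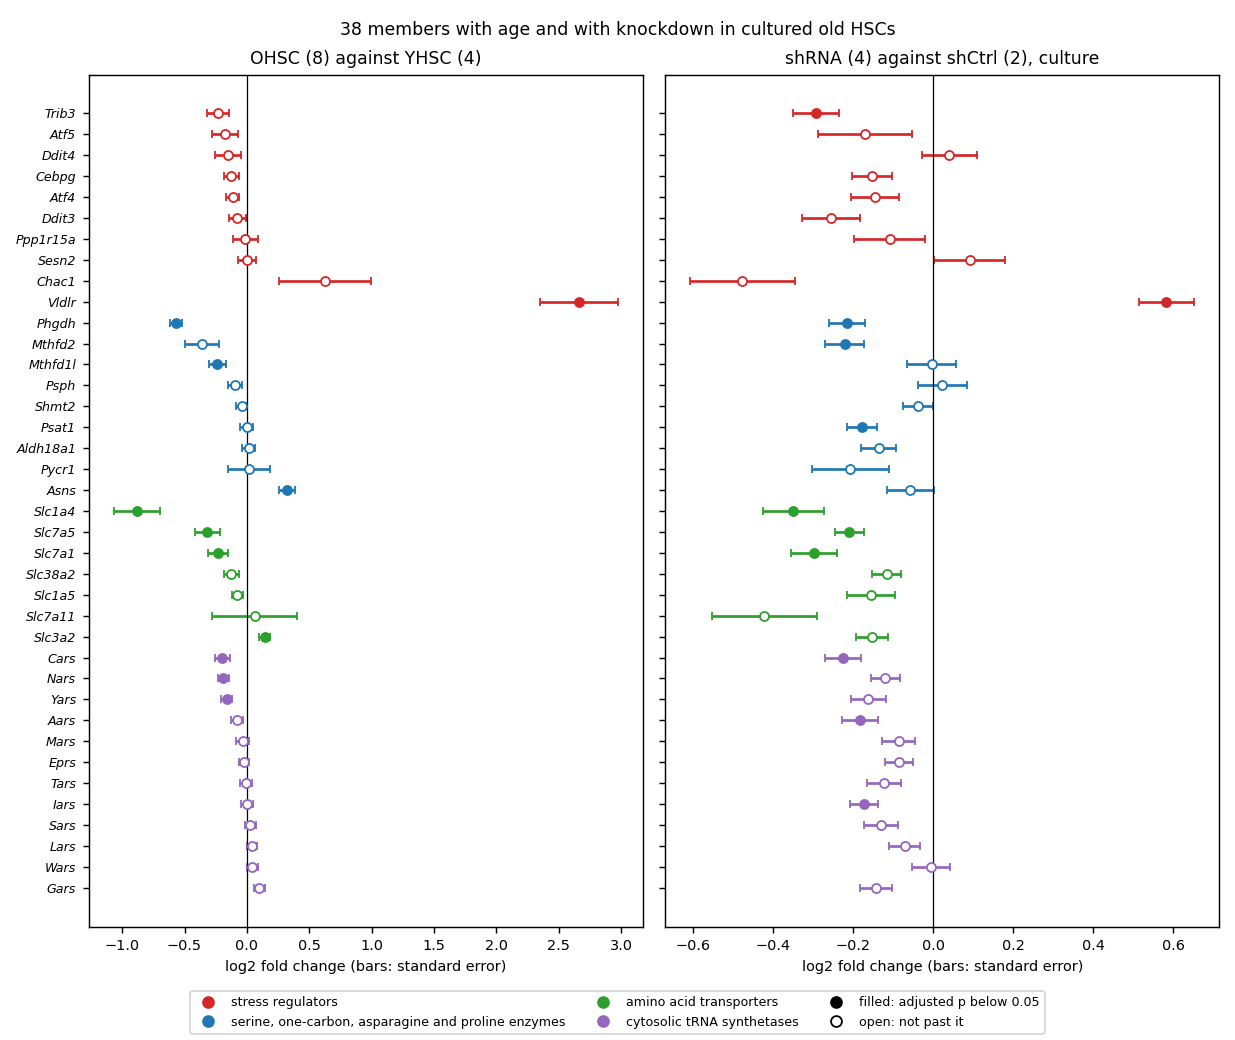
Log2 fold change of the 38 members in OHSCs (8) against YHSCs (4) on the left and in cultured OHSCs with an shRNA (4) against shCtrl (2) on the right, coloured by class; bars are standard errors, filled points have an adjusted p below 0.05, and the 2 axes have different scales. Vldlr is at the far right in both panels, at 2.66 and 0.58, and on the right 34 of 38 points lie below 0.

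The shRNAs differed from each other at 4 members in culture. With shRNA2 against shRNA1, Sesn2, a leucine sensor induced by stress, was higher by 0.28 ± 0.06 (adjusted p = 0.00752, edgeR), at 67.1 and 67.6 CPM against 53.9 and 57.0, Vldlr by 0.19 ± 0.05 (adjusted p = 0.0196) and Slc1a5 by 0.15 ± 0.04 (adjusted p = 0.0359), at 448 and 449 against 399 and 407. Asns was lower by -0.18 ± 0.04 (adjusted p = 0.00606), at 207 and 205 CPM against 227 and 238. The 2 libraries of one shRNA lay apart from those of the other in all 4 genes, and Slc1a5 was not called without any 1 of the 4 shRNA libraries. Vldlr was not called without either replicate of shRNA1 or without replicate 2 of shRNA2, with log2 fold changes of 0.16 to 0.23. Each of these fits leaves 1 library of an shRNA. Of all genes 3.25% were higher and 2.33% lower, and without replicate 1 of shRNA1 0 members were higher and without replicate 2 of shRNA1 1 was, with 0 lower in the second case. After transplantation 0 members differed between the shRNAs (edgeR, 0 at an unadjusted p below 0.05, and 0 with DESeq2). Of all genes 0.00983% were higher and 0% lower, and 5.07% and 5.83% at the unadjusted p.

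After transplantation no knockdown effect on the members passed the test. All 20350 genes gave 0 calls in edgeR, 0% in each direction, and DESeq2 called 38 genes higher and 22 lower but 0 members. At an unadjusted p below 0.05, 0 members were higher and 5 lower (all genes 3.27% and 2.32%), and 33 of 38 log2 fold changes were negative with a median of -0.10. For 8 members (Ddit4, Asns, Shmt2, Slc3a2, Slc1a4, Slc1a5, Wars and Mars) all 4 shRNA libraries were below both shCtrl libraries and for 0 above, which 6.81% and 7.82% of all genes showed. Slc1a4 was at 6.54 and 7.74 CPM with shCtrl, 5.09 and 4.36 with shRNA1 and 4.30 and 4.75 with shRNA2, a log2 fold change of -0.63 ± 0.17 with an adjusted p of 0.852. Vldlr was at 104 and 28.2 CPM with shCtrl against 16.9 to 47.8 (-0.95 ± 0.65, adjusted p = 0.940), so the 2 controls were far apart. Trib3 gave -0.31 ± 0.17 (adjusted p = 0.926), Asns -0.25 ± 0.10 (adjusted p = 0.881), Atf4 -0.00 ± 0.09, Psat1 0.04 ± 0.08, Ddit3 -0.07 ± 0.12 and Chac1 0.41 ± 0.51. Leaving out both libraries with the most Elane and Mpo reads also gave 0 members.

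The difference between the knockdown effects in the 2 settings was tested directly. No member passed in either direction (edgeR, 2 higher and 2 lower at an unadjusted p below 0.05, and 0 with DESeq2), where 0.382% of all genes were higher and 0.518% lower, and 5.51% and 6.03% at the unadjusted p. The Vldlr difference, culture minus transplantation, was 1.54 ± 0.84 with an adjusted p of 0.581. Thus the members called in culture were not shown to respond differently after transplantation. Without replicate 1 of shRNA1 after transplantation Psat1 passed, at -0.28 (adjusted p = 0.0478).

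In young progenitors the members differed strongly between lineages. MEP had 24 members higher and 7 lower than CMP (edgeR over 18234 genes), where 28.9% of all genes were higher and 35.6% lower. The median log2 fold change was 0.62 over the members and -0.07 over all genes, and 19 members were higher and 5 lower by more than 1.5-fold (all genes 17.5% and 29.2%). GMP had 22 higher and 4 lower than CMP, against 18.8% and 16% of all genes, with a median of 0.26, but 4 in each direction passed 1.5-fold (all genes 6.24% and 10.5%). MEP had 23 higher and 10 lower than GMP, against 27.7% and 33.7% of all genes, with 12 and 7 past 1.5-fold (all genes 16.6% and 27.2%). These comparisons rest on 2 libraries a group.

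Asns set MEP apart. It was at 29.7 and 23.6 CPM in CMP, 50.4 and 46.4 in GMP and 664 and 664 in MEP, so the 3 progenitors formed separate levels and MEP stood far above both others. The log2 fold change was 4.62 ± 0.09 for MEP against CMP (adjusted p = 1.9e-12, edgeR), 0.89 ± 0.09 for GMP against CMP and 3.73 ± 0.09 for MEP against GMP. Aldh18a1, which starts proline synthesis, was at 174 and 163 CPM in CMP, 164 and 161 in GMP and 466 and 475 in MEP (1.47 ± 0.05 for MEP against CMP and 1.48 ± 0.05 against GMP). Slc1a4 was at 3.24 and 3.70, 2.23 and 1.16, and 12.7 and 10.9 CPM in the same order, higher in MEP by 1.75 ± 0.25 and lower in GMP by -0.99 ± 0.29 than in CMP (adjusted p = 0.017), the second not called without CMP replicate 2 or GMP replicate 2. Sesn2 was at 15.0 and 14.0, 13.3 and 15.6, and 37.2 and 34.9 CPM, higher in MEP by 1.30 ± 0.13 and overlapping between CMP and GMP.

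Of the 3 serine synthesis genes, Phgdh and Psat1 were lower in MEP than in CMP and Psph was higher. Phgdh was at 528 and 498 CPM in CMP, 632 and 632 in GMP and 271 and 242 in MEP, a log2 fold change of -1.01 ± 0.05 for MEP and 0.34 ± 0.05 for GMP against CMP (adjusted p = 1.8e-09 and 0.0003, edgeR). Psat1 followed the same order, at 195 and 192, 254 and 254, and 152 and 132 CPM (-0.46 ± 0.06 and 0.43 ± 0.06). Psph was at 74.2 and 64.3 CPM in CMP, 84.5 and 79.9 in GMP and 102 and 98.1 in MEP (0.51 ± 0.08 for MEP against CMP, adjusted p = 5.9e-05). Pycr1, which completes proline synthesis in mitochondria, was at 20.4 and 18.8 CPM in CMP, 25.5 and 24.2 in GMP and 6.19 and 4.43 in MEP (-1.89 ± 0.17 for MEP against CMP), so the 2 proline synthesis members had opposite changes. Mthfd2 was higher in both MEP (0.73 ± 0.09) and GMP (0.47 ± 0.09) than in CMP.

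Among the stress regulators, Atf4 was at 81.7 and 82.4 CPM in CMP, 107 and 116 in GMP and 116 and 98.7 in MEP. Both were above CMP, by 0.47 ± 0.08 and 0.37 ± 0.08 (adjusted p = 0.00043 and 0.00097, edgeR), and GMP and MEP overlapped (-0.10 ± 0.08, adjusted p = 0.29). Ppp1r15a was at 25.9 and 27.8 CPM in CMP, 6.91 and 8.92 in GMP and 56.9 and 66.0 in MEP, a spread of 2.91 ± 0.14 on the log2 scale between MEP and GMP. Ddit3 was higher in MEP than in CMP by 0.75 ± 0.11 and did not pass between GMP and CMP (-0.13 ± 0.11, adjusted p = 0.4). Ddit4 was at 6.54 and 7.91 CPM in CMP, 1.94 and 1.47 in GMP and 3.13 and 4.16 in MEP, lower than in CMP both in GMP (-2.04 ± 0.27) and in MEP (adjusted p = 0.00298). Vldlr was at 8.72 and 7.78, 1.47 and 0.775, and 0.0695 and 0.279 CPM, lower in each lineage than in CMP (-2.83 ± 0.35 in GMP and -5.54 ± 0.46 in MEP).

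Slc7a11 and Chac1 were near the floor of detection. Slc7a11 was at 0.623 and 0.534 CPM in CMP, 1.94 and 2.56 in GMP and 1.11 and 1.26 in MEP, higher in GMP by 1.99 ± 0.40 (adjusted p = 0.0017, edgeR). Chac1 had 2 and 0 reads in CMP, 20 and 16 in GMP and 0 and 0 in MEP. Over the summed reads it was 21.5-fold higher in GMP than in CMP, with an exact 95% counting interval from 5.53 to 184. Against a floor of 3 reads over both MEP libraries it was 12.9-fold higher in GMP, a value that leaves out the counting error of the GMP reads. The edgeR call between GMP and CMP (adjusted p = 0.011) was lost without either GMP replicate or without CMP replicate 2. Nars, the fourth largest rise in GMP, was at 309 and 295 CPM in CMP, 493 and 515 in GMP and 480 and 455 in MEP (0.78 ± 0.05 for GMP).

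Synthetases and the unfolded protein response moved differently between the lineages. All 12 member synthetases were higher in MEP than in CMP (median 0.73), and so were all 8 other cytosolic synthetases (median 0.60) and 14 of 17 mitochondrial ones. In GMP 10 of 12 member synthetases were higher (median 0.28) and 7 of 8 of the others (median 0.25). The 16 genes of the XBP1 and ATF6 arms were all lower in MEP (median -0.82) and all higher in GMP (median 0.97) than in CMP. Of 16 tested ATF4 targets outside the members 4 were higher and 9 lower in MEP, and 6 higher and 2 lower in GMP. Of 13 genes of the eIF2 kinases, phosphatase and subunits, 11 were higher in MEP than in CMP, Eif2ak1 (HRI), the heme-regulated kinase of erythroid cells, by 0.88 ± 0.06, while Eif2ak3 (-0.41 ± 0.13, adjusted p = 0.0163) and Eif2ak4 (-0.41 ± 0.08, adjusted p = 0.000498) were lower. Proliferation markers were higher in MEP for 10 of 12, with Top2a (-0.17 ± 0.04) and Aurkb (-0.15 ± 0.05) lower, and in GMP for 9 of 12, with Mcm2 lower (-0.23 ± 0.04), and their part in these changes was not tested.

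**Figure D5:**
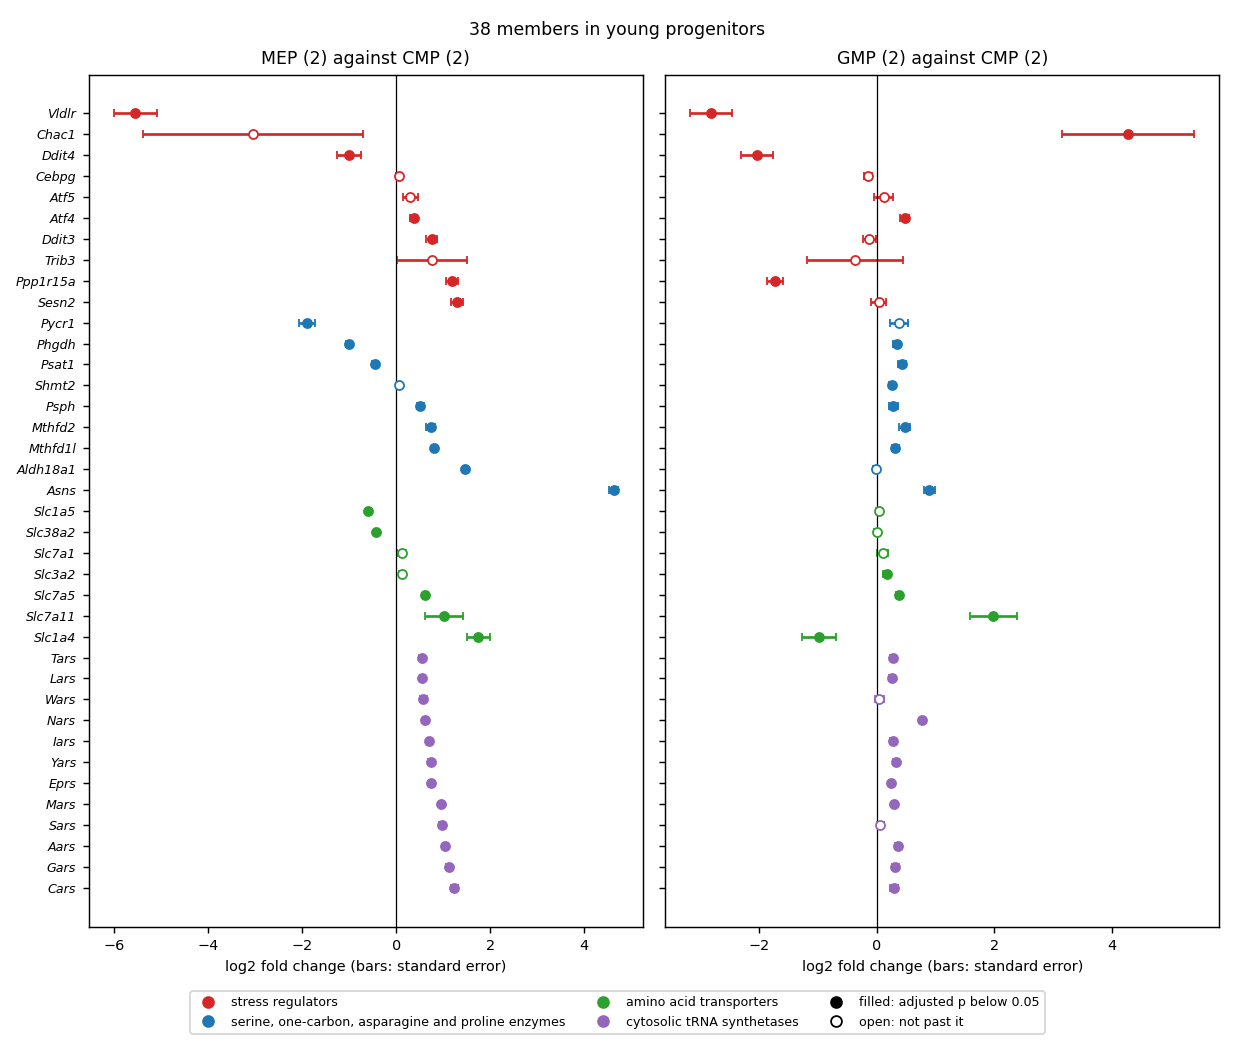
Log2 fold change of the 38 members in MEP (2 libraries) against CMP (2) on the left and in GMP (2) against CMP (2) on the right, coloured by class; bars are standard errors, filled points have an adjusted p below 0.05, and the 2 axes have different scales. Asns is at 4.62 on the left and 0.89 on the right, Vldlr is at -5.54 and -2.83, and the Chac1 points rest on 2 reads in CMP and 0 in MEP.

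Against YHSCs, the 3 progenitors together had 29 members higher and 8 lower (edgeR over 25716 genes), where 29.7% of all genes were higher and 58% lower. The median log2 fold change was 1.02 for the members and -0.85 for all genes, and 0.99 and -0.62 when only protein-coding genes were fitted. The HSC and progenitor libraries were made as separate sets, the first with spike-in RNA, so cell type and library set cannot be told apart. The share of reads on mitochondrial mRNAs was 0.946 to 1.13% in YHSCs and 0.567 to 0.657% in progenitors, and 37847 to 42062 against 21375 to 23405 genes had a read, both without overlap, and their part in the change of the members was not tested. Values are as fitted, without subtracting that shift of all genes, and of the 8 lower members Trib3, Vldlr, Chac1 and Ddit4 lay below the median of all genes, while Ppp1r15a (-0.78 ± 0.07), Slc7a11 (-0.69 ± 0.25), Sesn2 (-0.48 ± 0.07) and Slc1a4 (-0.45 ± 0.16) lay above it. These last 4 were not lower in every progenitor: in MEP alone Slc1a4 (1.06 ± 0.19), Ppp1r15a (0.60 ± 0.09) and Sesn2 (0.39 ± 0.09) were higher than in YHSCs (adjusted p at most 0.000705, edgeR), and in GMP alone Slc7a11 gave 0.28 ± 0.32 (adjusted p = 0.427). In the pooled fit Slc1a4 was not called without YHSC replicate 3 or GMP replicate 2, nor Slc7a11 without YHSC replicate 4. All 9 enzymes and all 12 synthetases were higher. The largest rises were in Mthfd2 (3.37 ± 0.09), Slc7a5 (2.36 ± 0.05), Pycr1 (2.24 ± 0.14) and Mthfd1l (1.97 ± 0.05). For 27 members all 6 progenitor libraries lay above all 4 YHSC libraries and for 3 below, which 22.5% and 42.5% of all genes showed. Mthfd2 was at 5.30, 6.60, 7.00 and 6.83 CPM in YHSCs and at 49.0 to 94.0 CPM in the 6 progenitor libraries (median 69.0), without overlap. Slc7a5 was at 58.0, 57.5, 52.9 and 66.5 CPM in YHSCs and at 237 to 385 in progenitors, also without overlap. Pycr1 and Mthfd1l had 2.23 to 3.38 and 38.1 to 43.3 CPM in YHSCs against 4.43 to 25.5 and 126 to 228 in progenitors, each with no overlap. Atf4 was higher by 0.56 ± 0.05, Psat1 by 1.70 ± 0.05 and Asns by 1.34 ± 0.06, the last from MEP and GMP, since in CMP alone Asns was lower than in YHSCs (-0.49 ± 0.08), where the median of all genes was also -0.49. Ddit3 gave -0.06 ± 0.07 (adjusted p = 0.43), lower in CMP and GMP alone and higher in MEP alone (0.50 ± 0.09).

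Trib3 stood out among the lower members. It was at 44.2, 44.9, 51.8 and 48.1 CPM in YHSCs, 0.374 and 0.314 in CMP, 0.432 and 0.0775 in GMP and 0.487 and 0.698 in MEP, a log2 fold change of -6.97 ± 0.15 (adjusted p = 4.1e-21, edgeR). Every HSC library, also those of OHSCs in culture and after transplantation, held at least 30.8 CPM, and every progenitor library at most 0.698. The 3 progenitors did not differ from each other in Trib3 beyond their spread (adjusted p from 0.23 to 0.77). Vldlr differed by -3.95 ± 0.18 on the log2 scale and Ddit4 by -1.65 ± 0.14, with Ddit4 at 12.7, 10.6, 8.73 and 12.4 CPM in YHSCs. Chac1 had 16, 7, 13 and 20 reads in YHSCs and was 17.3-fold higher there than in CMP (exact 95% counting interval 4.58 to 147). Against a floor of 3 reads over both MEP libraries it was 10.4-fold higher in YHSCs, a value that leaves out the counting error of the YHSC reads. GMP had 36 reads in all against 56 in YHSCs, and in GMP alone the fitted change had the other sign (0.32 ± 0.60, adjusted p = 0.627, edgeR).

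As a description of what varied together, each gene was centred within the age, culture, transplantation and progenitor libraries and compared with Atf4 over all 30 libraries. Of 12171 genes with a mean above 5 CPM, the members most like Atf4 were Nars (Pearson r = 0.767), Slc7a5 (0.675), Tars (0.602), Mthfd2 (0.579) and Mthfd1l (0.566). The 5 most alike genes outside the members were Snf8 (0.806), Dctn6 (0.805), Sphk2 (0.796), Emc4 (0.791) and Rpl7l1 (0.779), so several genes outside the list were closer to the Atf4 mRNA than any member. The 30 points share library sets and normalization, and members of one set are not independent.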

How the data were processed

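The report covers 30 mRNA-seq, 8 ATAC-seq and 4 H3K27ac ChIP-seq libraries. The 38 members, the other gene lists and the tests were chosen with earlier results of these data known. Gene values are raw read counts as deposited, which the authors made with featureCounts (GENCODE M22 annotation) from STAR alignments to mm10, after trimming with cutadapt through Trim Galore. No source used here states the strand or multimapping settings. ATAC-seq values were deposited as raw counts over 127695 consensus regions, from BWA alignments, of which 89245 with a CPM above 1.5 in at least 4 libraries were tested. For H3K27ac they deposited signal per peak, normalized to a common number of reads. The files' own fold changes and p-values, where present, and 8 per-sample columns that no label tied to a single sample were not used.

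Spike-in RNA (92 rows in the 12 age libraries) and 319 low-mappability peak rows were left out. Counts were tested with edgeR 4.0.16 (R 4.3.3) by a robust quasi-likelihood fit with TMM factors and filterByExpr in each library set: age (12 libraries), culture (6), transplantation (6), both settings together (12), progenitors (6), and progenitors with YHSCs (10). Benjamini-Hochberg adjustment covered all genes tested, and an adjusted p below 0.05 was called. CPM printed in the report used TMM factors over all 30 libraries, and RPKM the union of exons. Fold changes are log2 with standard errors. DESeq2 1.42.0, no filter, other scaling, a replicate block and leaving out each replicate were alternatives. H3K27ac was compared by ratios without a test. Atf4, Ddit3, Trib3, Chac1, Asns and Psat1, and the 4 largest called rises and falls, were described in each comparison, with the 5 members and 5 other genes most like Atf4. Low-count ratios of Chac1 have exact 95% intervals that cover counting error only, or a floor of 3 reads that leaves out the counting error of the other group. No identical libraries were found. Scripts were checked on simulated counts. Plots used Python 3.11.15 and matplotlib 3.10.9.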

Additional observations from a re-analysis of the deposited data

Results flagged for a closer look

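In OHSCs, 2 synthetase genes had 1 library apart from the other 7. Sars was at 84.3 CPM in old replicate 7 against 93.3 to 97.8 in the others (gap 0.663 of the range), and Gars at 97.2 CPM in the same library against 106 to 112 (gap 0.590 of the range), both past Dixon's 95% limit. Of 76 member and group combinations with 4 to 8 libraries 2 were past the limit, and chance alone gives about 1 in 20. Neither gene was called with age.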

How the results depend on the processing

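With DESeq2 size factors in edgeR every count of called members stayed within 1.5 times its value, and 38 members were higher in culture than after transplantation in the fits with DESeq2, without a filter and without the libraries with the most Elane and Mpo reads, a choice made after seeing the data, as was the fit of protein-coding genes (29 higher and 8 lower in progenitors). With a 1.5-fold threshold added, members higher and lower came to 1 and 1 with age, 0 and 0 for the knockdown in culture, 0 and 0 between the shRNAs in culture, 4 higher in GMP against CMP and 12 higher in MEP against GMP. With the study's rule of 1.5-fold and an unadjusted p below 0.05 the knockdown gave 0 and 0 in culture and 1 lower after transplantation. Without the filter 17 members were lower with the knockdown in culture and 1 was higher in the difference of the settings. In culture shRNA1 alone gave 19 lower, and shRNA2 alone 2 higher and 19 lower. Of the progenitors, MEP alone had 4 members lower than YHSCs, and the sign turned for Asns in CMP alone (-0.49), Chac1 (0.32) and Slc7a11 (0.28) in GMP alone and Ddit3 (0.50), Sesn2 (0.39), Ppp1r15a (0.60) and Slc1a4 (1.06) in MEP alone. Without a fold threshold 23 promoter regions were less accessible with age. H3K27ac gave 0 higher peaks when scaled to the same median, and 2 higher and 2 lower at a ratio above 1.2 in every pairing. The causes were not tested, apart from thresholds, which by construction change the count.

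Leaving out 1 library gave 5 to 10 lower and 2 to 4 higher members with age, 0 to 12 lower for the knockdown in culture, 0 to 3 higher and 0 to 1 lower between the shRNAs in culture, 0 to 1 lower in the difference of the settings, and 0 to 2 higher and 0 to 1 lower H3K27ac peaks. In a fit with one control left, that control was assumed to vary like the other groups.

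Samples with the same replicate number did not deviate together throughout (r from -0.218 to 0.0785 for age, -0.0407 to 0.0535 in culture, -0.151 to 0.213 after transplantation, 0.048 to 0.244 in progenitors), so a pairing was not shown. In groups of 2 libraries, replicates 1 and 2 give the same r by construction. These values therefore cannot decide whether libraries with the same number shared a batch. With that number as a replicate block, members higher and lower were 2 and 8 with age, 1 and 9 for the knockdown in culture, 36 and 0 for culture against transplantation, 23 and 7 for MEP against CMP, 22 and 4 for GMP against CMP, 23 and 9 for MEP against GMP and 29 and 6 for progenitors against YHSCs. No paired analysis was possible for ATAC-seq because the numbers are not shared. H3K27ac was compared by ratios over all pairings and not tested, so no block was fitted there. Depth limits Chac1 in CMP and MEP, at 0 to 2 reads a library, and Trib3 in progenitors, below 1 CPM.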

Other observations

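Of 15 genes of amino acid sensing by mTORC1, 2 were higher and 0 lower in OHSCs, and 5 were higher and 9 lower in progenitors than in YHSCs (median log2 fold change -0.31 against -0.85 for all genes, edgeR). Of 17 mitochondrial synthetases 5 were higher and 0 lower in OHSCs, with a median of 0.08, while 0 of the 12 member synthetases were higher and 3 lower. The 8 mitochondrial chaperones and proteases that answer mitochondrial stress had 0 calls in either direction with age (edgeR, 1 higher and 0 lower at an unadjusted p below 0.05), and 6 were higher and 2 lower in culture than after transplantation.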
